A study of Homo sapiens with 4 samples.

Results

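The genes described here are 44 genes of mitosis and the kinetochore, chosen by name for what their proteins do in cell division. All 44 were found by gene name among the 43305 genes of the arrays, on 56 probes, and their probes lie on 16 chromosomes. Each of the 44 was well above background, by the scanner software's own mark, on all 4 arrays. They were measured in HN4 and HN30, established cell lines of human head and neck squamous cell carcinoma (HNSCC), and in the cisplatin-resistant lines derived from them, labelled HN4_CR and HN30_CR and called HN4/DDP and HN30/DDP by the study. The parental cells grew without cisplatin, a platinum drug that crosslinks DNA. The resistant lines were built from them by raising the dose stepwise, and their RNA was taken from cells kept in 20 μM cisplatin, for 48 h by the sample labels. Adaptation and the presence of the drug at harvest therefore cannot be told apart.

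A cell enters mitosis when CDK1, bound to a B-type cyclin, becomes active. The chromosomes then condense, the kinetochore is assembled on each centromere and is caught by spindle microtubules, and the spindle checkpoint holds the anaphase-promoting complex (APC/C) back until every chromosome is attached. Most of the genes are transcribed in waves that peak in G2 and M phase, under the transcription factors MYBL2 and FOXM1 and the MuvB complex, and their RNAs are low in resting cells, which is why they serve as markers of proliferating cells in tumours.

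Each condition was measured on 1 one-colour array (Cy3), so the differences have neither a replicate check nor a test. Levels are log2 of the processed signal minus the 75th percentile of the array, and a difference is the resistant minus the parental level of the same probe. A difference of -1 is a halving of the signal. The error within an array, taken from the scanner's own error estimate, had a median SD of 0.20 per difference for the 44 genes (range 0.065 to 0.28). Signals at the 75th percentile were 444 to 496, between 55.3% and 63.6% of the 60901 spots were well above background, and no spot was saturated. The label of squamous cells was checked with 9 epithelial markers, of which all 9 were well above background in HN4, HN4/DDP and HN30 and 8 in HN30/DDP. The exception was KRT6A, at least 183-fold lower in HN30/DDP than in HN30 (its signal there is set to the lowest one well above background). Single keratins differed widely within the HN4 pair too, with KRT5 at -4.05 and KRT6A, KRT17, KRT14 and the desmoglein DSG3 higher in HN4/DDP by 3.32, 3.29, 2.33 and 1.84. The summed signal of these markers was 246, 262 and 250 times the 75th percentile on those 3 arrays and 155 times on the HN30/DDP array, sums to which SFN and EPCAM gave most of the signal. Of 6 fibroblast markers 2 were well above background on each array, with a summed signal of 0.22 to 1.03, while COL1A2, COL3A1, DCN and LUM were not above it anywhere. Of 6 endothelial markers 2 were well above background in HN4, HN4/DDP and HN30 and 4 in HN30/DDP, and they summed to 0.24 to 0.53. Of the 5 measured leukocyte markers 3 were well above background on those 3 arrays and 4 in HN30/DDP. They summed to 3.74 to 40.0, with the highest value in HN30/DDP. There all 5 were higher than in HN30, CD14 by 3.49 and ITGAM by 2.06. The part of these shifts in the results below was not tested.

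The mitotic genes were lower in both resistant lines, by a small amount in HN4/DDP and by a large amount in HN30/DDP. In HN4/DDP the median difference of the 44 genes was -0.49, which is 71.4% of the parental signal, and the differences ran from -1.72 for NDC80 to 0.43 for PBK. In HN30/DDP the median was -1.72, which is 30.3% of the parental signal, and the range was -3.32 for NCAPG to -0.62 for NEK2. Over the 29521 genes that any of the arrays marked as well above background the medians were -0.09 in HN4/DDP and 0.05 in HN30/DDP. Relative to those medians, the mitotic genes were lower by 0.40 and 1.77. Because the RNA came from whole cultures, a smaller share of dividing cells and less of these RNAs per cell cannot be told apart.

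Of the 44 genes, 42 were below 0 in HN4/DDP, where 56.7% of all genes were, and 6 were below -1, where 7.87% of all genes were. Counts below -1 or -2, here and in the lists described later, require that the parental signal be well above background. The 6 were NDC80, CENPI, MKI67, KIF14, FOXM1 and KIF11. This count was 2 when the arrays were scaled on spike-in probes and 3 when the trend with brightness was removed, so it rests on genes close to the threshold. None of the 44 was below -2, where 2% of all genes were, and none was above 1, where 8.47% of all genes and 7.17% of those of like brightness were. By the scanner error, 26 genes were lower by more than 2 SD and 17 lay within 2 SD of no difference.

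In HN30/DDP all 44 genes were below 0 against 47.5% of all genes, and each of them by more than 2 scanner SD. The count below -1 was 40, where 12.7% of all genes were, and the count below -2 was 13, where 2.64% were. The 4 genes that stayed above -1 were PTTG1, NCAPH, BUB3 and NEK2. The count below -1 was 33 with quantile normalization and in the deposited values, 36 with the trend with brightness removed and 44 with median scaling. No member was above 1, where 19% of all genes and 15.7% of those of like brightness were. Among the 19098 genes of like brightness, whose mean log2 level lay between that of the dimmest and that of the brightest member, 54.9% were below 0, 16.3% below -1 and 2.95% below -2 in HN30/DDP, with a median of -0.10. When the trend of the differences with brightness was removed in 20 bins, the median of the 44 genes in HN30/DDP was -1.33. In HN4/DDP the same shares were 56.2%, 7.58% and 1.67%, with a median of -0.08.

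**Figure D1:**
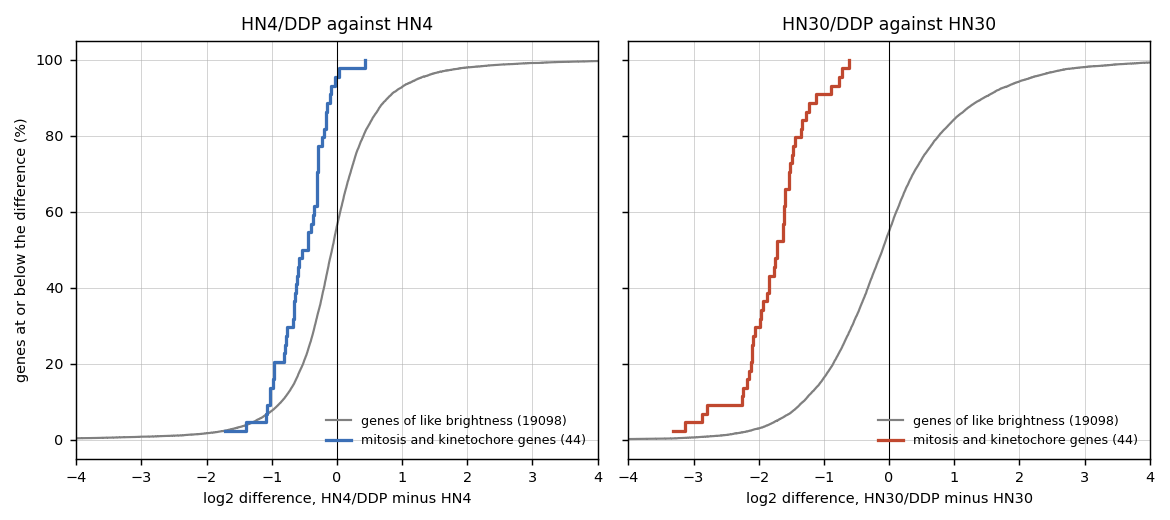
Cumulative share of genes (vertical axis, %) at or below each log2 difference (horizontal axis) for the 44 mitosis and kinetochore genes (coloured steps) and the 19098 genes of like brightness (grey), in HN4/DDP against HN4 and in HN30/DDP against HN30. The coloured steps lie left of the grey curve over most of their height in HN4/DDP, with medians of -0.49 and -0.08, and in HN30/DDP over all but its foot, with medians of -1.72 and -0.10.

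Both lines were below 0 for 42 genes, against 30.3% of all genes and 35.4% of those of like brightness. Both were below -1 for 6, against 1.73% and 2.15%, and these were the 6 named above. The difference was lower in HN30/DDP than in HN4/DDP for 43 of the 44, with a median gap of -1.18, and NCAPH was the exception. The order of its differences, -0.96 in HN4/DDP against -0.76, turned to -0.91 against -1.16 with median scaling, -0.91 against -1.23 with quantile normalization and in the deposited values, and -0.85 against -1.01 with the trend with brightness removed. This gap between the lines was not tested, as each line gives 1 difference. Across the 44 genes the differences of the 2 lines were weakly related (Pearson r = 0.24, Spearman rho = 0.18, n = 44 genes read from the same 4 arrays).

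**Figure D2:**
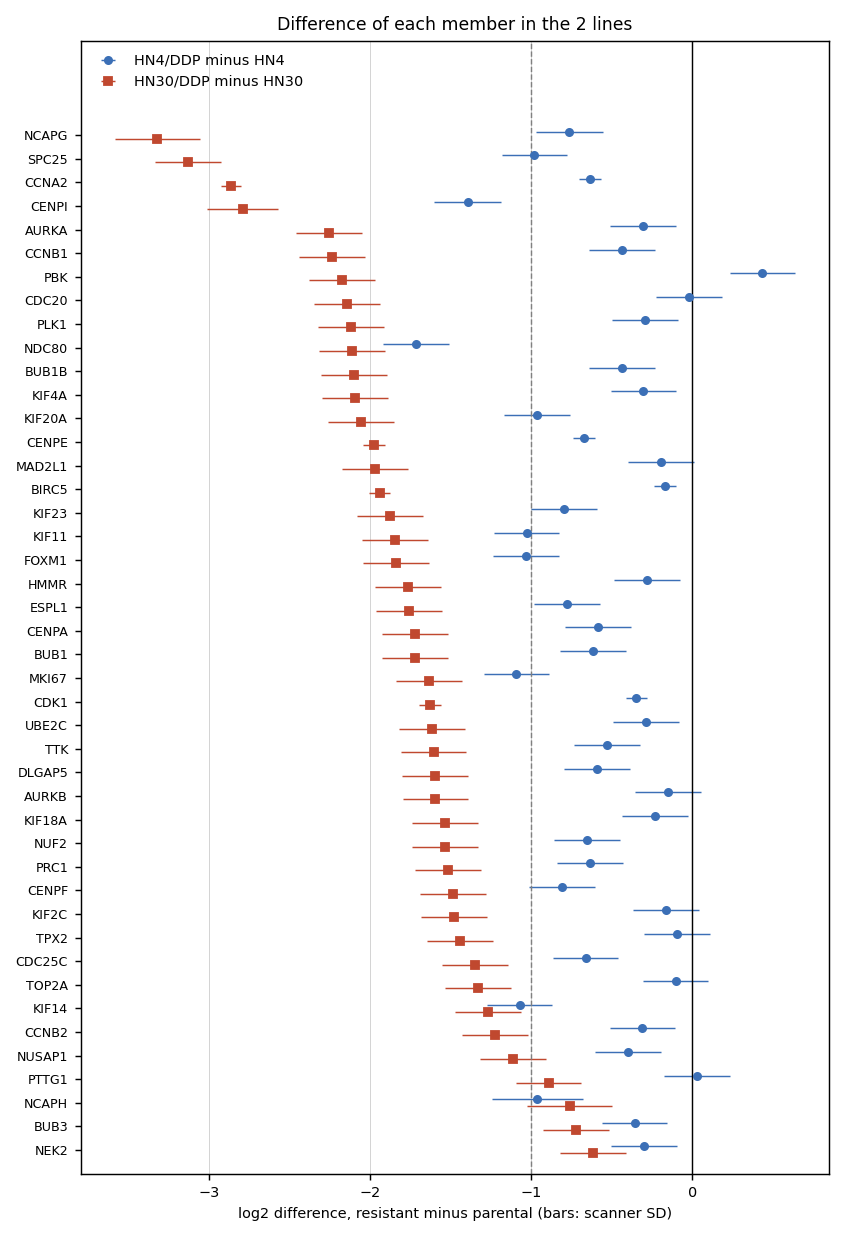
Log2 difference of each of the 44 genes (horizontal axis) in HN4/DDP (blue circles) and HN30/DDP (red squares), ordered by the HN30 value, with bars of 1 scanner SD and a dashed line at -1. All 44 squares lie left of 0 and 40 lie left of the dashed line, while 6 circles do, and only the NCAPH square lies right of its circle, an order that turned under median scaling, quantile normalization, the deposited values and removal of the trend with brightness.

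The parental lines had similar levels of these genes. HN30 differed from HN4 by -0.31 to 0.54, with a median of 0.14, so that all 44 genes lay within 1, as did 88.8% of all genes and 92.7% of those of like brightness, and 32 were higher in HN30. Between the resistant lines 43 genes were lower in HN30/DDP than in HN4/DDP (42.8% of all genes, 50.8% of those of like brightness), 24 of them by more than 1 (10.1% and 11.2%), with a median of -1.03 and a range of -2.34 to 0.31.

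The cyclins, CDK1 and CDC25C, the phosphatase that activates CDK1, were described first because they start mitosis. All 5 were lower in both lines, with medians of -0.44 and -1.63 in HN4/DDP and HN30/DDP. In all pairs of differences that follow, HN4/DDP comes first. CDK1 had a level of 3.34 in HN4 and 2.99 in HN4/DDP, against 3.88 in HN30 and 2.25 in HN30/DDP. The highest value was in parental HN30 and the lowest in its resistant line, with differences of -0.35 and -1.63. CCNB1, which encodes cyclin B1, had 5.91 and 5.47 in the HN4 pair and 6.07 and 3.83 in the HN30 pair, so that the HN30/DDP array stood apart from the other 3, and the differences were -0.44 and -2.24. CCNA2, which encodes the cyclin A of S and G2 phase, had 2.96 and 2.32 in the HN4 pair and 3.29 and 0.43 in the HN30 pair. Its difference of -2.86 in HN30/DDP left 13.7% of the parental signal, against 64.3% in HN4/DDP. CCNB2 (-0.31 and -1.23) and CDC25C (-0.66 and -1.35) differed less in HN30/DDP. The probes of CDK1 and CCNB1 are shown, with those of BUB1 and KIF20A described below, because each of these 60-base probes spans a longer stretch of the genome than its own length and so reads across a splice junction. They are given 5′ to 3′ as printed in the scanner files, with their hg19 span from first to last base.
CDK1 probe, chr10:62552004-62553650, plus strand: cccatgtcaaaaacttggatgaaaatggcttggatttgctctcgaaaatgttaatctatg
CCNB1 probe, chr5:68471363-68473123, plus strand: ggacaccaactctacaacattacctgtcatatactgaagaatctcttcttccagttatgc
BUB1 probe, chr2:111395699-111397340, minus strand: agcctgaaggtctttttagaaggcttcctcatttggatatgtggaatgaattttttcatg
KIF20A probe, chr5:137522081-137522804, plus strand: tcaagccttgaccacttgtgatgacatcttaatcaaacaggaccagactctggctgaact

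The mitotic kinases AURKA, AURKB, PLK1, NEK2 and PBK, with BIRC5 (survivin, the subunit that brings AURKB to the centromere), had the widest gap between the medians of the lines, -0.23 in HN4/DDP and -2.03 in HN30/DDP. AURKA, the kinase of the spindle poles, had 4.50 and 4.20 in the HN4 pair and 4.67 and 2.42 in the HN30 pair. AURKB, the kinase of the chromosomal passenger complex, had 1.46, 1.31, 1.76 and 0.16 on the arrays in the order HN4, HN4/DDP, HN30, HN30/DDP. In both kinases the HN4 arrays were close together, with differences of -0.31 and -0.15, and the HN30/DDP array was low, with differences of -2.25 and -1.60. With spike-in scaling the HN4/DDP difference of AURKB was 0.0036. PLK1, which acts at centrosomes and kinetochores, had 1.17, 0.87, 1.47 and -0.65 on the arrays in the same order, a difference of -0.29 and -2.12. BIRC5 had 6.48, 6.32, 6.45 and 4.51, so that the parental lines were alike and the resistant lines were not, with differences of -0.17 and -1.94. PBK, a kinase found in dividing cells, was the member with the highest difference in HN4/DDP. It had 3.48 in HN4 and 3.92 in HN4/DDP, which is 135% of the parental signal and past 2 SD of the scanner error within arrays, but 3.75 in HN30 and 1.57 in HN30/DDP, which is 22.2%. NEK2, a kinase of centrosome separation, had 1.72, 1.42, 1.55 and 0.93, the smallest difference of the 44 in HN30/DDP (-0.62). BUB3 had a smaller one with quantile normalization and in the deposited values (-0.23 against -0.45 in both) and with the trend with brightness removed (-0.23 against -0.36). NCAPH had a smaller one with normexp background correction (-0.41 against -0.59) and with a pseudocount of 16 (-0.58 against -0.60).

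The spindle checkpoint genes had medians of -0.44 and -1.72, and all 5 were lower in both lines. BUB1, a checkpoint kinase of the kinetochore, had 3.65, 3.03, 3.75 and 2.02, again in that order. BUB3, its binding partner, had 4.39, 4.03, 4.62 and 3.90, so that its HN30/DDP array was the lowest, with differences of -0.36 and -0.72. The latter was -0.23 with quantile normalization, in the deposited values and with the trend with brightness removed, and -1.12 with median scaling. The difference of BUB1 was -0.62 in HN4/DDP and -1.72 in HN30/DDP. BUB1B and MAD2L1, which form the inhibitor of the APC/C with BUB3 and CDC20, differed in HN4/DDP by -0.44 and -0.19, and in HN30/DDP by -2.10 and -1.97. TTK, the kinase that starts the checkpoint signal, differed by -0.53 and -1.61.

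The centromere and outer kinetochore genes held the 2 lowest genes in HN4/DDP, NDC80 and CENPI, and had medians of -0.81 and -1.98. All 7 were lower in both lines. NDC80, which encodes the microtubule-binding subunit of the outer kinetochore, had 5.28 and 3.57 in the HN4 pair and 5.37 and 3.26 in the HN30 pair. Its resistant arrays were both far below the parental ones, with differences of -1.72 and -2.11. SPC25, a subunit of the same complex, had 4.15, 3.17, 4.61 and 1.48, with differences of -0.98 and -3.13, and in HN30/DDP 11.4% of the parental signal was left. CENPI, a protein of the inner kinetochore, had -0.73, -2.13, -0.24 and -3.04, again with both resistant arrays below both parental ones, and differences of -1.40 and -2.79. With normexp background correction these were -1.02 and -1.94, and with only those probes that the files assign to a RefSeq mRNA they were -1.08 and -2.17. In HN4/DDP, MKI67 was below CENPI under both settings, at -1.06 and -1.09. CENPA, the histone H3 variant that marks the centromere, had 2.74, 2.16, 2.57 and 0.85. CENPF, a large protein of the outer kinetochore, had 6.04, 5.23, 5.88 and 4.40. For both of these genes the parental arrays lay above the resistant ones, with differences of -0.58 and -1.72 for CENPA and of -0.81 and -1.48 for CENPF. NUF2, the partner of NDC80, differed by -0.65 and -1.54, and the kinetochore motor CENPE by -0.67 and -1.98.

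The 7 kinesins had medians of -0.80 and -1.85 and were all lower in both lines. KIF11, the motor that pushes the spindle poles apart, had 4.06, 3.03, 4.18 and 2.33. KIF20A, a motor of the central spindle and cytokinesis, had 3.27, 2.30, 2.96 and 0.90. In both motors the 2 parental arrays lay above the 2 resistant ones, with differences of -1.03 and -1.85 for KIF11 and of -0.96 and -2.06 for KIF20A. KIF14, which acts in cytokinesis, was the kinesin with the most similar differences, -1.07 and -1.27. KIF2C, which takes microtubules apart at centromeres, differed by -0.16 and -1.48. KIF18A, KIF23 and KIF4A differed in HN4/DDP by -0.23, -0.80 and -0.30, and in HN30/DDP by -1.54, -1.88 and -2.10. The spindle-associated genes, which encode proteins that bundle or nucleate microtubules, had medians of -0.40 and -1.52. Among them PRC1, the crosslinker of the central spindle, had -0.63 and -1.52, and TPX2, the activator of AURKA, had -0.09 and -1.44. HMMR differed by -0.28 and -1.76, DLGAP5 by -0.59 and -1.60, and NUSAP1 by -0.40 and -1.12.

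The genes of chromosome structure had medians of -0.86 and -1.48 and were spread widely in HN30/DDP, from -3.32 to -0.76. NCAPG, a subunit of condensin I, had -1.004 and -1.77 in the HN4 pair and -0.77 and -4.10 in the HN30 pair. The last value was still well above background, and 10.0% of the parental signal was left in HN30/DDP against 58.9% in HN4/DDP. Its HN30/DDP difference of -3.32 was -1.92 with normexp background correction and -2.75 with a pseudocount of 16, and under both SPC25 (-3.05 and -3.11) was the lowest of the 44 in its place. NCAPH, another subunit of condensin I, was dim on all arrays, with -3.16, -4.13, -3.05 and -3.81, and differed by -0.96 and -0.76. These differences were -0.42 and -0.41 with normexp background correction, and -0.69 and -0.58 with a pseudocount of 16. TOP2A, the topoisomerase that untangles sister chromatids, had 3.73, 3.62, 4.05 and 2.72, so that the HN4 arrays were within 1 scanner SD of each other and the HN30/DDP array was low, with differences of -0.10 and -1.33. With spike-in scaling its HN4/DDP difference was 0.052. MKI67, the Ki-67 protein that coats mitotic chromosomes and marks cycling cells in pathology, had 3.23, 2.14, 2.98 and 1.35. Both resistant arrays were below both parental ones, with differences of -1.09 and -1.64.

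The genes of anaphase and mitotic exit had the smallest median in HN4/DDP, -0.16, and a median of -1.69 in HN30/DDP. CDC20, the activator of the APC/C, had 3.27 in HN4 and 3.24 in HN4/DDP but 3.36 in HN30 and 1.22 in HN30/DDP. Its difference of -0.02 in HN4/DDP had no settled sign, being 0.028 with median scaling, 0.061 with quantile normalization, 0.053 with the trend removed and 0.13 with spike-in scaling, while that in HN30/DDP was -2.15. PTTG1, the securin that holds separase inactive until anaphase, had 7.11, 7.14, 7.22 and 6.33. The HN4 pair was level, at 0.03, and HN30/DDP differed from HN30 by -0.89. The latter was -0.47 with quantile normalization, -0.49 in the deposited values, -0.44 with the trend removed and -1.29 with median scaling. Close copies of PTTG1 exist in the genome, and whether its probe also binds their RNA was not tested. ESPL1, the separase, differed by -0.78 and -1.76, and UBE2C, a ubiquitin-conjugating enzyme of the APC/C, by -0.29 and -1.62. FOXM1, the transcription factor of the G2 and M wave, had 3.15 and 2.11 in the HN4 pair and 2.98 and 1.14 in the HN30 pair. Its resistant arrays were both below its parental arrays, with differences of -1.03 and -1.84.

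**Figure D3:**
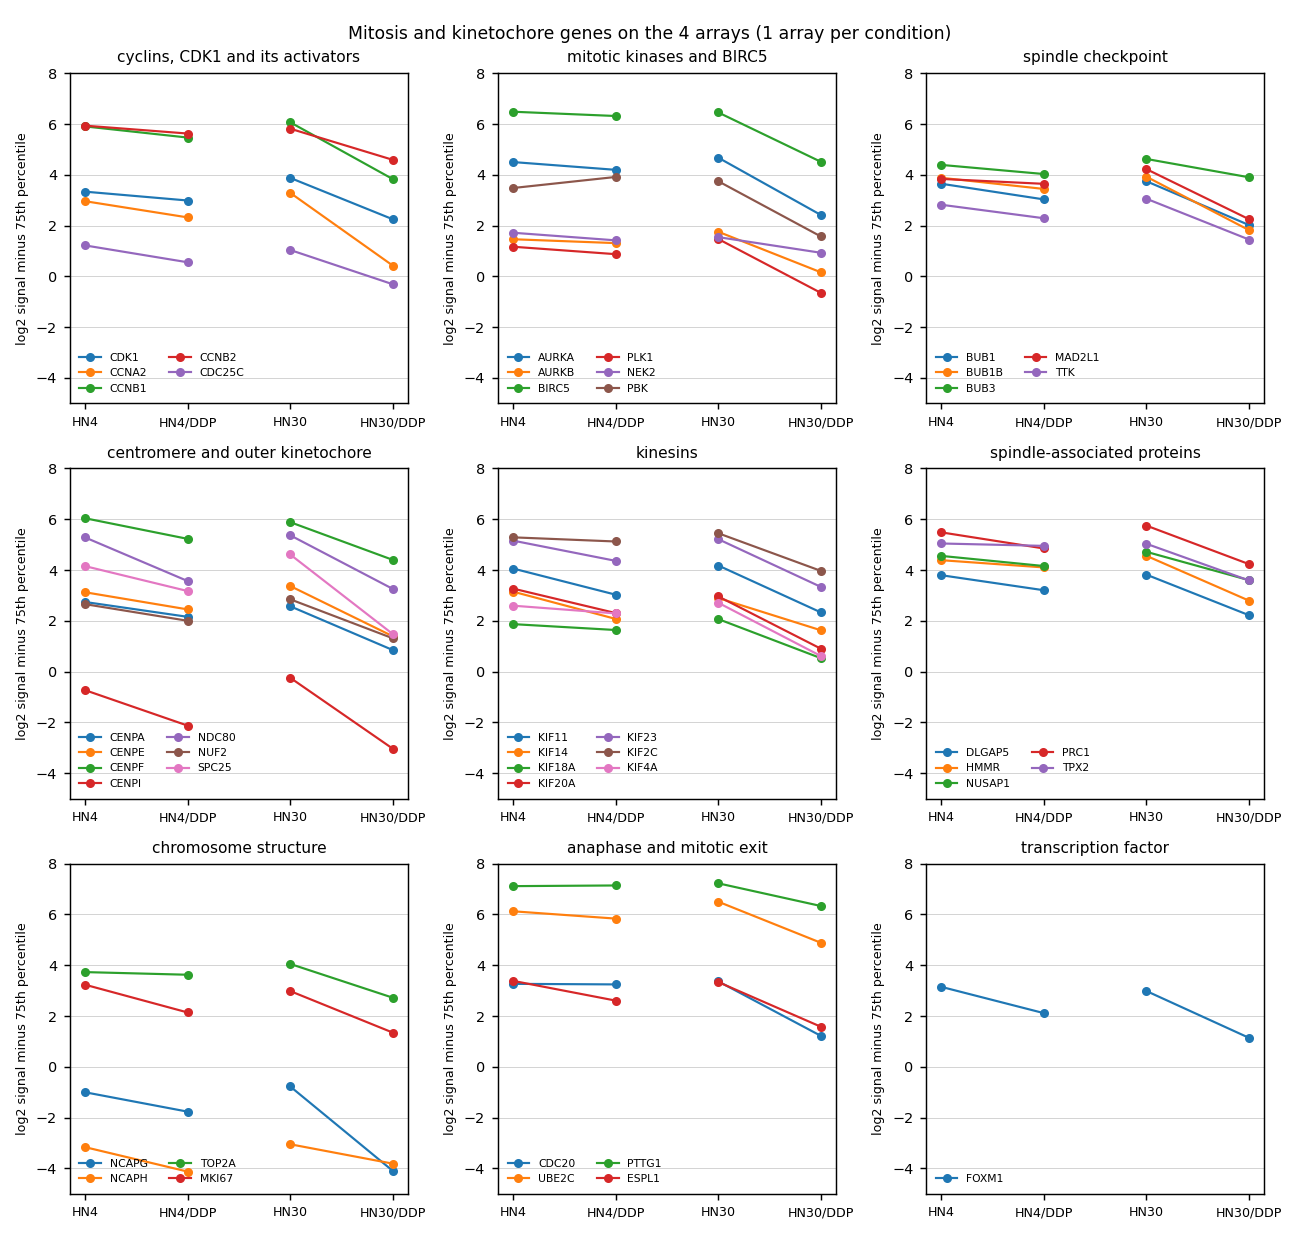
Log2 level of each gene (signal minus the 75th percentile of the array, vertical axis) on the 4 arrays, in 9 panels by role, with a line joining the parental and the resistant array of a cell line. Levels of different genes come from different probes and are not comparable with each other. The lines of the HN4 pair slope little, with a median of -0.49, and those of the HN30 pair more steeply, with a median of -1.72.

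More than 1 probe was available for 10 of the genes, which gave 12 further probes. All 12 were lower in both resistant lines, with medians of -0.67 in HN4/DDP (range -1.70 to -0.24) and -1.62 in HN30/DDP (range -2.76 to -0.55), and 11 of them were well above background on all 4 arrays. The exception was the other CDK1 probe, which was above background on 2 arrays. Sizes differed between probes of a gene. The further probe of BUB3 had -0.32 and -1.67, against -0.36 and -0.72 for the probe used. The 2 further probes of MKI67 had -1.51 and -1.70 in HN4/DDP and -2.76 and -1.43 in HN30/DDP. For PLK1 the further probe had -0.40 and -0.97, less than the -2.12 of the probe used in HN30/DDP. Neither PLK1 probe is assigned to a RefSeq mRNA, so PLK1 has no value when only such probes are kept.

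The contrast of resistant with parental arrays over both lines, with cell line as a block, was the only one with replication, the lines being the replicates. It was fitted with limma over all 29521 genes and left 1 residual degree of freedom per gene. Its p-values rest on the spread between 2 lines, each grown as 1 culture, which limma draws towards a trend over all genes. No gene had an adjusted p under 0.05 (the smallest was 0.38), and the adjusted p of the 44 genes ran from 0.44 to 0.81. At an unadjusted p under 0.05 limma called 13 of the 44, which is 29.5%, all lower, against 8.59% of all genes in either direction and 3.31% that were lower. Without limma's trend it called 8 of the 44 and 2186 of all genes, and without the block 18 and 3261. The fitted difference was below 0 for all 44, with a median of -1.09 and a median SE of 0.47. On simulated arrays whose spreads were drawn from all 29521 genes, limma called 0% of 200 genes changed by 3. Each drawn spread had been estimated with 1 residual degree of freedom, so the simulated spreads were more uneven than the true ones. With so little replication, a count of 0 here does not show that the genes did not change.

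Other genes of mitosis were described from lists that share no gene with the 44. Of 27 further kinetochore and centromere genes, 25 were below 0 in HN4/DDP and 27 in HN30/DDP, with medians of -0.54 and -1.65, and 1 and 22 of them were below -1. For these counts and those of the lists that follow, the shares over all genes were 56.7% and 47.5% below 0, and 7.87% and 12.7% below -1, in the same order of the lines. The HN4/DDP counts of 1 in 27 here, 2 in 23, 1 in 16 and 3 in 30 below are near or under that share. Their lowest values were HJURP, the chaperone of CENPA, at -1.44 in HN4/DDP and ZWINT, a kinetochore scaffold, at -3.05 in HN30/DDP. Of 23 spindle and cytokinesis genes, 20 and 22 were below 0, with medians of -0.47 and -1.38, and 2 and 13 were below -1. The lowest of them in HN4/DDP was ANLN, the anillin of the contractile ring, at -1.77. Of 17 condensin and cohesin genes all 17 were below 0 in both lines, with medians of -0.52 and -1.22, and 4 and 11 were below -1. In HN4/DDP the cohesin regulator PDS5B was the lowest, at -1.57, and in HN30/DDP it was the highest, at -0.02.

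The remaining lists hold regulators and the genes of S phase, and their medians in HN30/DDP were more varied. The 16 genes of APC/C subunits and inhibitors had medians of -0.23 and -0.79, with 1 and 7 below -1. Of 14 other regulators of entry and exit, the phosphatase CDC14A was well above background in HN30/DDP alone and was left out. The other 13 had medians of -0.26 and -1.71, with 0 and 8 below -1. In the DREAM and MuvB complexes, which repress or activate the cell cycle promoters, the 10 genes had medians of -0.38 and -1.26. MYBL2, the activator of this group, had -2.92 in HN30/DDP, and of the repressing form the pocket protein RBL1 had -2.65 and E2F4 had -1.48, while the pocket protein RBL2 was higher by 0.68. The 30 S-phase genes, which copy DNA before mitosis, had medians of -0.50 and -1.95, with 3 and 28 below -1, and the lowest was RRM2, a subunit of ribonucleotide reductase, at -3.74 in HN30/DDP. Lower values in HN30/DDP were therefore found for S-phase genes as well as for mitotic genes.

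**Figure D4:**
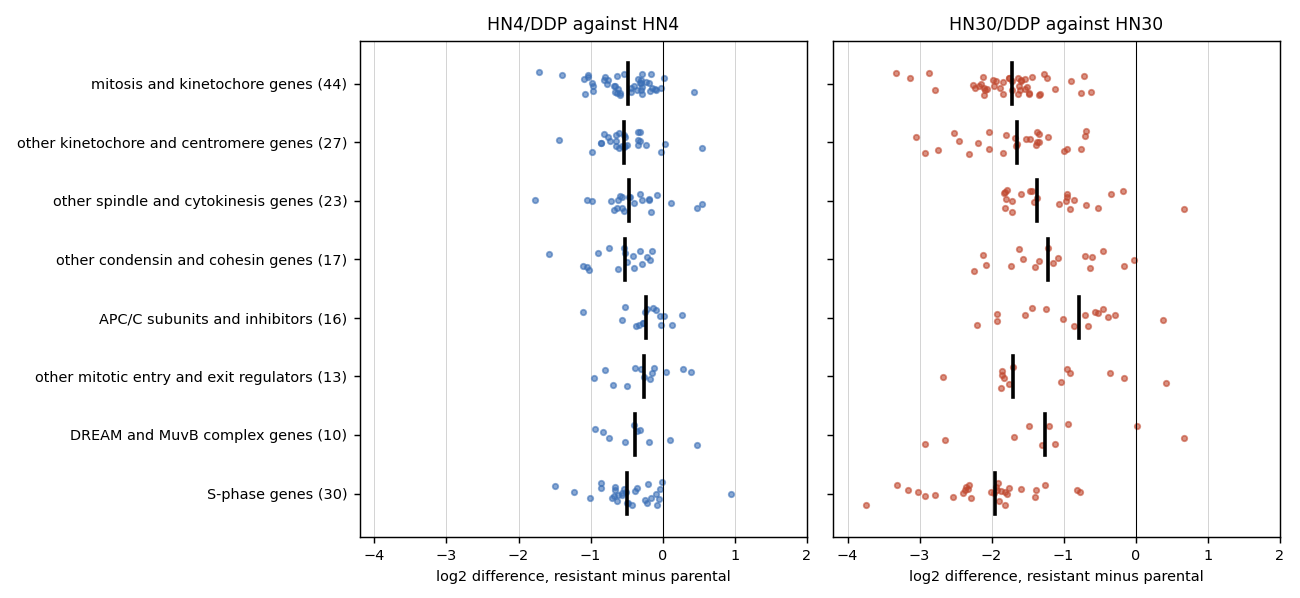
Log2 difference (horizontal axis) of each gene of the 44 mitosis and kinetochore genes and of 7 further lists, in HN4/DDP against HN4 and HN30/DDP against HN30, with 1 point per gene well above background on all 4 arrays and a black bar at the median of each list. In HN30/DDP the medians run from -1.95 for S-phase genes to -0.79 for the APC/C, and the mitosis and kinetochore genes lie at -1.72.

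The promoters of the genes were read for the elements known from cell cycle promoters. The RefSeq table of promoters (GRCh38.p14, 250 bases before and 50 bases after each gene start) held 36 of the 44 genes. It had no entry for AURKA, BIRC5, BUB3, FOXM1, PBK, TPX2, TTK and UBE2C. The cell cycle homology region was searched as TTTGAA or TTCGAA and the CCAAT box as CCAAT, each on both strands, so that TTCAAA and ATTGG also counted, overlapping matches included. The former was found in 26 of the 36 promoters (72.2%), against 19.5% of all 27305 genes of the table and 15.6% of the 9751 protein-coding genes of like brightness. CCAAT was found in 29 (80.6%), against 39.7% and 43.0%, and both elements in 22 (61.1%), against 7.85% and 6.61%. In the other mitotic lists the cell cycle homology region was found in 55% of kinetochore, 50% of spindle and cytokinesis, 66.7% of condensin and cohesin, 66.7% of entry and exit, 40% of DREAM and MuvB and 31.3% of APC/C genes with a promoter. Of 26 S-phase genes with a promoter, 7.69% held the cell cycle homology region and 65.4% held CCAAT. A match is a run of letters and not a site known to be bound.

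The matches lay near the gene start, with a median of 28 bases before it for the 37 matches of the cell cycle homology region and of 73 bases for the 59 of CCAAT, where a site found in several entries of a gene counts once, from the nearest start. In MKI67 a match of each shared 1 base, and in PTTG1 and HMMR matches of CCAAT and ATTGG overlapped. In 10 promoters (27.8%) TTTGAA began between 40 and 20 bases before the start, a window set after the positions were seen, against 0.780% of all genes of the table and 0.677% of the protein-coding genes of like brightness. The 30 bases around it are shown because the 10 genes share this position, with every TTTGAA in capitals (HMMR holds a pair in a row), on the strand of the gene, GRCh38.p14.
NCAPG, chr4:17810932-17810961, plus strand: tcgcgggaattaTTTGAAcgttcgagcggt
CDC25C, chr5:138331817-138331846, minus strand: gctggcggaaggTTTGAAtggtcaacgcct
HMMR, chr5:163460592-163460621, plus strand: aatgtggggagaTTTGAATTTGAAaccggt
MKI67, chr10:128126435-128126464, minus strand: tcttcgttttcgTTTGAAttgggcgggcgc
ESPL1, chr12:53268256-53268285, plus strand: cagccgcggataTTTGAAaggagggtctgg
BUB1B, chr15:40161034-40161063, plus strand: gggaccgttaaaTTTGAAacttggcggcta
CCNB2, chr15:59105105-59105134, plus strand: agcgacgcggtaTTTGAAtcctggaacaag
PRC1, chr15:90994538-90994567, minus strand: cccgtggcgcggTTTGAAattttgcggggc
PLK1, chr16:23678848-23678877, plus strand: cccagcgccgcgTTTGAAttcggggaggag
KIF4A, chrX:70290058-70290087, plus strand: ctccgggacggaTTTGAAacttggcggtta

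**Figure D5:**
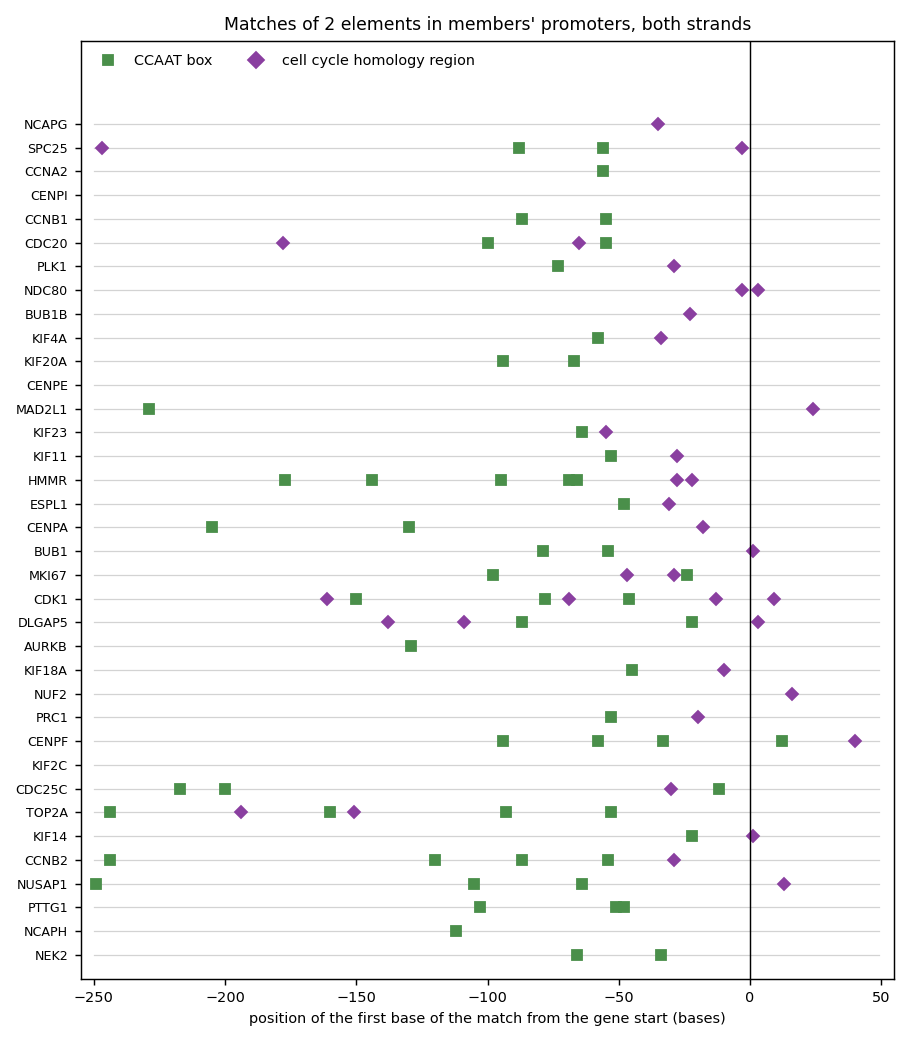
Position of each match of the CCAAT box (green squares) and the cell cycle homology region (purple diamonds), on either strand, relative to the gene start (horizontal axis, bases), in the promoters of 36 genes ordered by their HN30/DDP difference, lowest at the top. For the 4 genes with several entries in the table, matches of all entries are on the same line, each site once and from the nearest start. Of the 37 diamonds, 9 lie at or right of the start. Diamonds have a median of 28 bases before it, and squares one of 73.

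The differences of genes with and without the elements overlapped, and no test was made of them. With the cell cycle homology region, 26 genes had medians of -0.60 and -1.72 in the 2 lines, and without it 10 genes had -0.54 and -1.79. With CCAAT, 29 genes had medians of -0.58 and -1.64, and without it 7 genes had -0.67 and -2.10. The promoters of CENPI, SPC25 and NCAPG, lowest by the mean of both differences, and of PTTG1, nearest to 0, are shown as the 250 bases before the start on the strand of the gene, with TTTGAA and CCAAT or its complement ATTGG in capitals. With normexp background correction NDC80 (-1.71 and -2.07) lay below CENPI (-1.02 and -1.94) and NCAPG (-0.57 and -1.92) in both lines. CENPI, among the lowest, has neither element in this stretch, NCAPG has TTTGAA without CCAAT, SPC25 has both (a further TTTGAA begins 3 bases before the start and runs past the stretch), and PTTG1 has CCAAT on both strands, once overlapping, without TTTGAA. The CENPI probe used begins at base 36 of a transcript that is not a RefSeq mRNA. Whether the stretch shown lies at the start of that transcript was not tested, so the promoter of the RNA measured may be another. For PTTG1 the first of the entries in the table is given.
CENPI, chrX:101100808-101101057, plus strand: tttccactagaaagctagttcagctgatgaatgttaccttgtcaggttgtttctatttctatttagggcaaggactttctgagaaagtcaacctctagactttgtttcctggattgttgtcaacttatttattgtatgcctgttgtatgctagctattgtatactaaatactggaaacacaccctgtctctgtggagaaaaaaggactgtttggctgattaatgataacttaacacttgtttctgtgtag
SPC25, chr2:168890431-168890680, minus strand: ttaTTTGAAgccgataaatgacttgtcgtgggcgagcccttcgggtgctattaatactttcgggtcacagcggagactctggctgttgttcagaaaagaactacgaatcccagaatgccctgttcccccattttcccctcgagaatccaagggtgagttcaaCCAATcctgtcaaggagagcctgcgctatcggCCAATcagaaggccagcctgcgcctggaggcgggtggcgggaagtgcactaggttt
NCAPG, chr4:17810729-17810978, plus strand: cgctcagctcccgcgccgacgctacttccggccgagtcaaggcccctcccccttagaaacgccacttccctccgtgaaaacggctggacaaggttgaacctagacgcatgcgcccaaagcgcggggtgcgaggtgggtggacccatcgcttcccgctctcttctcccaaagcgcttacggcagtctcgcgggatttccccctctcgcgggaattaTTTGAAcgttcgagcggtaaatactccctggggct
PTTG1, chr5:160421605-160421854, plus strand: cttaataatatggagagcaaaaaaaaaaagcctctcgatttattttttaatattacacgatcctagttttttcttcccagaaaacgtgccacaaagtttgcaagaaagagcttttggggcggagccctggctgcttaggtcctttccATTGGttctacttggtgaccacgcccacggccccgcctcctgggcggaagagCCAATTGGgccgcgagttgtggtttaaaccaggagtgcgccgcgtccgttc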

How the data were processed

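Total RNA of 4 cultures (HN4, HN4/DDP, HN30 and HN30/DDP, 1 array each) was labelled with Cy3 and hybridised to Agilent SurePrint G3 Human v3 arrays. The authors deposited scanner files with 1 processed intensity per spot, from Agilent Feature Extraction 10.7.1.1 (background and spatial trend removed, probes placed on hg19). A further table they deposited holds log2 values whose sorted values are identical on all arrays, as after quantile normalization.

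Outlier spots were dropped, the remaining spots of each probe averaged, and log2 intensity minus the 75th percentile of all non-control spots was used, with the probe of highest mean for each gene. The share of genes past a threshold depends on the scaling and on the filter on dim genes, and both were varied, as was the trend of the differences with brightness (20 bins). Resistant and parental arrays were compared over both lines with limma 3.58.1 (R 4.3.3, eBayes with trend, Benjamini-Hochberg). All else was done in Python 3.11.15 with numpy 2.4.6 and pandas 2.3.3. On simulated data for this contrast (29521 genes, 200 of them changed by 3), limma with equal spread recovered 100% of those changed and called 10 others. With spreads drawn from single genes of the arrays, which are more uneven than the true ones, it recovered 0%. The number of arrays limits the precision.

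The members, the lists and the motifs were chosen with earlier results of these data known. Named genes are 18 chosen by role, the lowest and highest 3 in each line and the 2 with the widest gap between lines. Alternatives were normexp background correction (offset 50), median, quantile and spike-in scaling, the deposited log2 values, a pseudocount of 16, other treatments of dim probes and of several probes per gene, the threshold of 2, and fits without the block or the trend.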

Additional observations from a re-analysis of the deposited data

Results flagged for a closer look

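PBK and PTTG1 had differences of opposite sign in the 2 lines. PBK was higher by 0.43 in HN4/DDP, and in HN30/DDP it was at -2.17. PTTG1 was at 0.026 in HN4/DDP, within 1 scanner SD of no difference, and at -0.89 in HN30/DDP. For neither gene was this difference tested, since each condition has 1 array.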

How the results depend on the processing

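Of the alternative values of the summaries, 109 kept the result and 9 moved. The median of the 44 genes in HN30/DDP, -1.72 as reported, was -2.12 with median scaling, -1.40 with quantile normalization, -1.39 in the deposited log2 values and -1.33 with the trend with brightness removed. Median scaling moved the median of all genes in HN30/DDP from 0.05 to -0.35. It subtracts a single value per array, so the gap between the medians of the 44 genes and of all genes stays at -1.77 by construction. This gap was -1.61 with normexp background correction, -1.33 with quantile normalization and in the deposited values, and -1.36 with the trend removed. The count below -1 in HN4/DDP, 6 as reported, was 2 with spike-in scaling and 3 with the trend removed. At a threshold of 2, the counts were 0 in HN4/DDP and 13 in HN30/DDP. Of the alternative values of single named genes, 467 moved by less than the scanner SD, 124 by more and 7 changed sign, all in HN4/DDP: CDC20 was 0.028 with median scaling, 0.061 with quantile normalization and in the deposited values, 0.13 with spike-in scaling and 0.053 with the trend removed, and with spike-in scaling AURKB was 0.0036 and TOP2A 0.052. The causes were not tested. The limma fit of both lines called 13 of the 44 genes at an unadjusted p under 0.05, 8 without the trend, and 18 with no replicate block for the cell line, with 0 genes at an adjusted p under 0.05 in each of these fits. Pairing here is by cell line. With 1 array per condition no array could be left out.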
